A study of Oryza sativa with 3 samples.

Results

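Transcripts of 10 rice loci that encode ERF transcription factors of stress and defence were followed in roots exposed to vanadate. ERF proteins carry a single AP2 DNA-binding domain, and many of them bind GCC-box promoter elements downstream of ethylene. The family is split into numbered groups. Group VII contains the Submergence 1 factors and, in many of its members, an N-terminal motif that ties protein stability to oxygen, as worked out in Arabidopsis. Group IX holds many activators of defence genes, and group VIII holds repressors with an EAR motif. The loci were taken by their identifiers, as the text before the first bar in the array's probe names. Together they had 25 probes of 42418 gene probes and stood for 10 of 29859 loci. In the order of the results they were AP59 (Os02g0654700), ERF83 (Os03g0860100), ERF922 (Os01g0752500), ERF3/AP37 (Os01g0797600), ERF101 (Os04g0398000), Sub1C (Os09g0286600), Sub1B (Os09g0287000), ERF71 (Os06g0194000), EREBP1 (Os02g0782700) and EBP89 (Os03g0182800). The first digits of a locus identifier give its chromosome, so that Sub1B and Sub1C lie on chromosome 9. Gene names and group memberships are background knowledge that the array files do not state.

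The treated group comprised roots of 6-day-old, dark-grown seedlings of cultivar TN67 given 1 mM vanadate, the phosphate-like oxyanion form of vanadium and a known blocker of P-type ATPases. The control group was given water. Each of 3 biological replicates was a fixed-volume pool of RNA from 1 h and 3 h, so the times cannot be separated, and was hybridised on 1 two-colour array with vanadate in Cy5 and water in Cy3. Since 0 arrays carried the dyes the other way round, per the labels, dye and treatment cannot be told apart. All ratios below are log2 of vanadate over water, normalized by loess within the array, with n = 3 arrays. A locus or probe was called where the adjusted p of limma, over all tested probes, was under 0.05.

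Between 69.0% and 75.3% of gene spots were well above background in the water channel and between 73.7% and 76.1% in the vanadate channel, and 0 spots were saturated. The number of arrays limits the precision. Replicates 1 and 2 were hybridised on the same slide, whereas a second slide with its own scan day held replicate 3. Negative control spots had a median water signal of 160, 154.5 and 89 and a median vanadate signal of 67, 68 and 62 on replicates 1, 2 and 3. All 5 probes of 4 root marker loci were well above background in both channels of every array. Of these loci Lsi1 and Lsi2, silicon transporters of endodermis and exodermis, had ratios of -2.06 and -1.02, and PHO1;2, a phosphate exporter of the stele, had -0.86, all called lower. RCc3, a cortex marker, had 0.68 on its brighter probe, called higher, and -0.28 on the other, called lower. In such bulk tissue, fewer cells of a type and less RNA per cell cannot be told apart. Of 6 probes of endosperm glutelins, at most 1 was above background in any channel. Of 21 probes of leaf mesophyll genes, the water channel of replicates 1, 2 and 3 had 5, 2 and 20 above background, and their vanadate channel had 7, 7 and 9. Their summed level in water was 2357, 2293 and 8304, against 2479.6, 2445 and 2687 in vanadate. None of the 4 leaf loci was called. The water sample of replicate 3 thus stood apart in leaf transcripts, and values without replicate 3 are given beside each of the 7 called ERF loci described first.

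The comparison asked which of these ERF transcripts changed under vanadium stress. Of the 10 loci, 9 had a tested probe: 4 were higher in vanadate, 3 were lower and 2 were not called. ERF922 was not tested. Among all 22149 tested genes 29.1% were called higher and 20.6% lower. All 4 higher loci and 1 of the lower loci differed at least 2-fold, against 8.46% and 1.52% of all tested genes. The same 4 loci had every vanadate level above every water level, as 23.8% of genes did, and the same 3 had every vanadate level below, as 16.6% of genes did. The 4 tested loci outside group VII were the 4 that rose, and the 5 loci of group VII held the 3 falls and the 2 loci not called. The median over the 9 loci was 0.12 against 0.02 over all tested genes. Over probes, 8 of 21 tested were called higher and 5 lower, against 28.4% and 20.8% of all tested probes. Probes of a locus share its transcript and are not replicates. Without replicate 3, 4 loci were again called higher and 3 lower, against 5906 and 3763 of all 22149 tested genes.

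**Figure D1:**
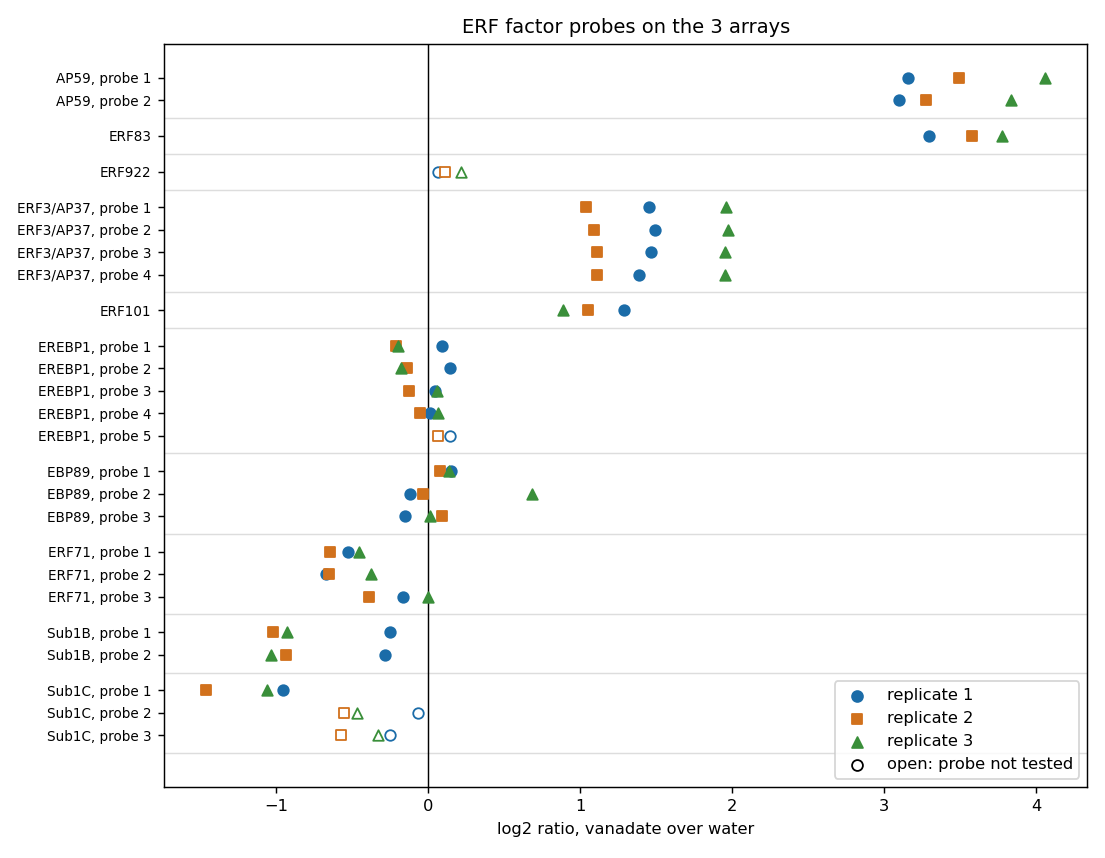
Each point is the log2 ratio of vanadate over water (horizontal axis) of 1 probe on 1 array, for all 25 probes of the 10 loci, numbered within a locus from the brightest, and open symbols mark probes that were not tested. The 3 arrays of AP59, ERF83, ERF3/AP37 and ERF101 lie right of 0 on every probe, those of Sub1B and Sub1C lie left of it, and those of EREBP1 scatter around it.

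AP59, a group IX factor whose overexpression raised drought tolerance of rice, rose by about as much as ERF83, and their ratios differed by less than the SE of either. On its brighter probe the log2 level in water was 10.92, 10.23 and 10.60 on replicates 1, 2 and 3, and in vanadate it was 14.07, 13.73 and 14.67. All vanadate levels lay above all water levels, with replicate 3 highest. The ratios of 3.16, 3.49 and 4.06 gave a mean of 3.57 ± 0.17 (SE, adjusted p = 1.94e-05 in limma), an 11.9-fold rise. Its second probe had ratios of 3.10, 3.27 and 3.84 with a mean of 3.40 ± 0.15 (SE, adjusted p = 1.49e-05 in limma). The brighter probe's ratio lay above that of 99.4% of tested genes. Without replicate 3 it was 3.33.

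ERF83, a group IX factor known to be induced by the rice blast fungus, rose by nearly the same ratio from a water level close to background. Its single probe had water signals of 304, 254 and 260 on replicates 1, 2 and 3, before background correction, and vanadate signals of 2347, 1991 and 2010.5. Every array measured it well above background in either channel, and the groups did not overlap. The ratios of 3.30, 3.58 and 3.78 gave a mean of 3.55 ± 0.11 (SE, adjusted p = 5.06e-06 in limma), an 11.7-fold rise. With the software's processed signals the ratio was 4.29, a larger fold by over 1.5 times, and above the 3.68 of AP59 there. In the authors' deposited table it was 4.17. Without replicate 3 the ratio was 3.44.

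ERF922, a group IX factor whose knock-down raised blast resistance of rice, could not be judged. Its single probe was named for an expressed sequence tag, whereas the other 24 probes were named for the coding sequence and 3′ UTR of cDNAs. The water signals of 170, 157 and 100.5 and the vanadate signals of 69, 71 and 69.5 lay near those of the negative control spots, and the probe was well above background in neither channel of any array. No fold is given for it.

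ERF3/AP37, a group VIII factor with an EAR repression motif, known for restraining ethylene synthesis and for its part in crown root growth, rose on all 4 of its probes. The brightest probe had log2 levels of 11.87, 11.91 and 11.74 in water and of 13.32, 12.95 and 13.70 in vanadate on replicates 1, 2 and 3. The water levels were nearly equal, and the vanadate levels were all higher and more spread. Its ratios of 1.45, 1.04 and 1.96 gave a mean of 1.48 ± 0.17 (SE, adjusted p = 0.000759 in limma), a 2.80-fold rise. The other probes had means of 1.52, 1.51 and 1.49, and on every probe replicate 2 was lowest and replicate 3 highest. Without replicate 3 the ratio of the brightest probe was 1.25.

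ERF101, a group X factor known for drought tolerance at the reproductive stage, rose least among the 4. Its single probe had log2 levels of 10.08, 10.40 and 10.36 in water and of 11.36, 11.46 and 11.25 in vanadate on replicates 1, 2 and 3. The groups did not overlap, and replicate 3 had the smallest ratio, unlike in AP59 and ERF3/AP37. The ratios of 1.29, 1.05 and 0.89 gave a mean of 1.08 ± 0.10 (SE, adjusted p = 0.000321 in limma), a 2.11-fold rise. Without replicate 3 the ratio was 1.17.

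**Figure D2:**
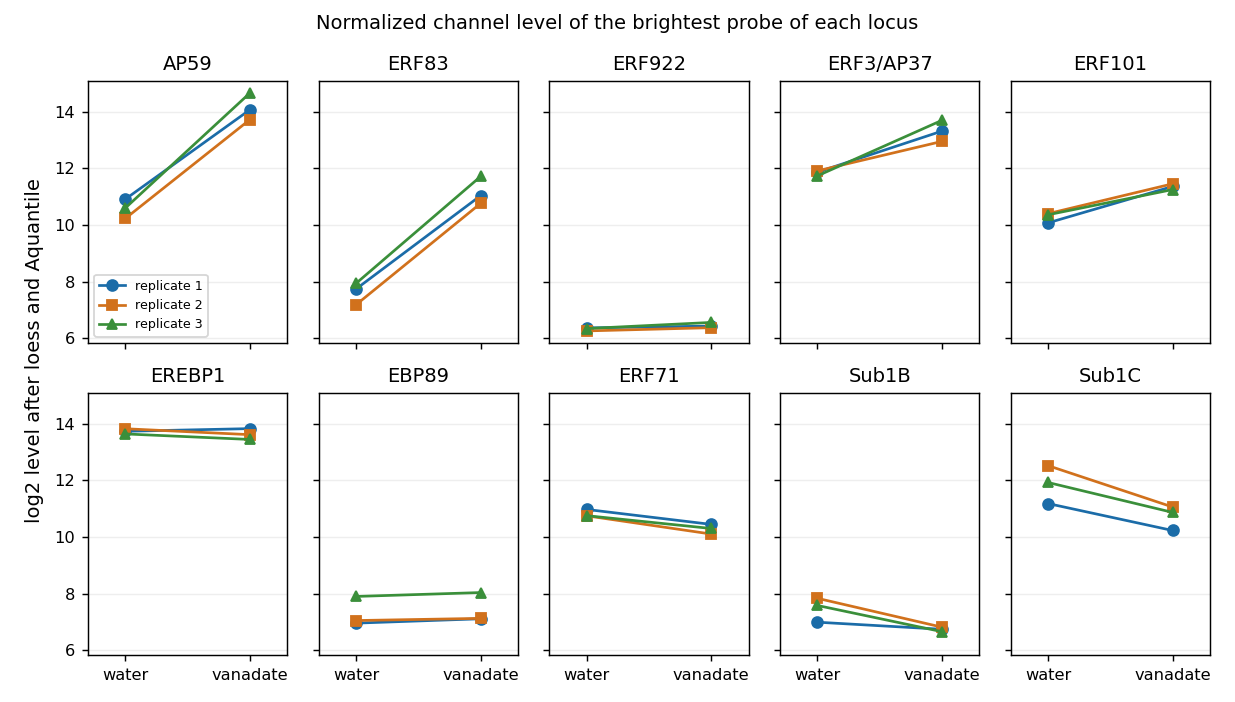
Each panel shows the normalized log2 level (vertical axis, after loess and quantile scaling of mean intensities between arrays) of the brightest probe of 1 locus in water and in vanadate, with a line for each of the 3 replicates. Lines climb for AP59, ERF83, ERF3/AP37 and ERF101, descend for ERF71, Sub1B and Sub1C, and stay flat for EREBP1, while ERF922 stays between 6.26 and 6.56 in both channels. Levels are not comparable between panels, since each probe has its own response.

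Sub1C, a group VII factor of the Submergence 1 locus, fell on its brightest probe. On its brightest probe the log2 level in water was 11.19, 12.53 and 11.93 on replicates 1, 2 and 3, and in vanadate it was 10.23, 11.06 and 10.87. The water level differed between replicates by more than the treatment did in replicate 1, and yet each array gave a lower vanadate level and the groups did not overlap. The ratios of -0.95, -1.46 and -1.06 gave a mean of -1.16 ± 0.12 (SE, adjusted p = 0.000448 in limma), a 2.23-fold fall. With channels taken as separate samples, which gives up the pairing within an array, the adjusted p was 0.0568 and the call was lost. Without replicate 3 the ratio was -1.21.

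The other probes of Sub1C were removed by the filter on dim probes. The second was well above background only on replicate 1, where its water signal was 867 and its vanadate signal 765, against water signals of 217.5 and 117 and vanadate signals of 83 and 62 on replicates 2 and 3. Replicate 1 was thus the high array for this probe, whereas the normalized levels of the brightest probe were lowest on replicate 1 in both channels. The third was above background on no array. With no filter on dim probes the second had -0.36 (adjusted p = 0.0413 in limma) and the third -0.38 (adjusted p = 0.0169 in limma), both lower, at signals this close to background.

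Sub1B, the neighbouring factor of the same locus, was measured close to background. Its brighter probe had water signals of 215, 325 and 187 and vanadate signals of 100, 103 and 72 on replicates 1, 2 and 3. The water channel was well above background on 2 arrays and the vanadate channel on 0. The ratios of -0.25, -1.02 and -0.93 gave a mean of -0.73 ± 0.16 (SE, adjusted p = 0.00953 in limma), and its second probe had ratios of -0.28, -0.93 and -1.03 with a mean of -0.75 ± 0.15 (SE, adjusted p = 0.00789 in limma). On both probes replicate 1 stood nearest to 0. Because vanadate was dim, Sub1B has only a limit, at least 1.66-fold lower on the brighter probe. That limit equals the fold of its ratio, since the dim level itself was not below the weakest level that any well-measured probe had on the array. On the log2 scale this limit was 0.73. The limit was lowest without replicate 2, at 0.59, and highest without replicate 1, at 0.97. Without replicate 3 the limit was 0.63. In the authors' deposited table the ratio was -2.04, with the processed signals -1.92 and with a normexp offset of 10 it was -1.07.

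ERF71, a group VII factor known for root architecture and drought tolerance, fell by less. Its brightest probe had log2 levels of 10.98, 10.75 and 10.76 in water and of 10.45, 10.11 and 10.30 in vanadate on replicates 1, 2 and 3. All vanadate levels lay below all water levels. The ratios of -0.53, -0.64 and -0.45 gave a mean of -0.54 ± 0.08 (SE, adjusted p = 0.00242 in limma), a 1.46-fold fall. The second probe had a mean of -0.57 ± 0.09 (SE, adjusted p = 0.00332 in limma). The third and dimmest had -0.18 ± 0.10 (SE, adjusted p = 0.166 in limma), with ratios of -0.16, -0.39 and 0.00, and was not called. Without replicate 3 the ratio of the brightest probe was -0.59.

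EREBP1, a group VII factor phosphorylated by a rice MAP kinase and known for drought and submergence tolerance when overexpressed, was bright in both channels. The log2 levels of its brightest probe were 13.74, 13.83 and 13.64 in water and 13.83, 13.62 and 13.45 in vanadate on replicates 1, 2 and 3. The groups overlapped. The mean ratio was -0.10 ± 0.09 (SE, adjusted p = 0.391 in limma), with a 95% interval of -0.33 to 0.12 on the log2 scale. The other tested probes had means of -0.06, -0.01 and 0.01. The fifth probe carried an outlier flag on replicate 3 and was not tested; with the flag ignored it had 0.19 ± 0.09 (SE, adjusted p = 0.122 in limma). A change of 2-fold in either direction lay outside the interval of each tested probe.

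EBP89, a group VII factor of drought and submergence responses, was dim. Its brightest probe was well above background on 1 water array and on all 3 vanadate arrays, and had ratios of 0.15, 0.08 and 0.14 on replicates 1, 2 and 3. The mean of 0.12 ± 0.08 (SE, adjusted p = 0.223 in limma) was not called, and its 95% interval was -0.06 to 0.31. The second probe had -0.12, -0.03 and 0.68, and the third had -0.15, 0.09 and 0.01. Replicate 3 stood apart on the second probe alone. With the processed signals the ratio of the brightest probe was 0.38 (adjusted p = 0.0253 in limma), past the threshold.

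The neighbour of EBP89 by locus number, LG3 (Os03g0183000), a group VII factor named for a grain length locus, was among 13 further ERF loci taken from background knowledge. Of these 12 were on the array and 9 were tested: 4 were higher, 2 lower and 3 not called, with a median ratio of 0.42. Over all tested genes the shares were 29.1% higher and 20.6% lower. LG3 fell by 0.39 ± 0.10 (SE) on the log2 scale, with an adjusted p of 0.0188 in limma. Without replicate 3 its adjusted p was 0.0552 and the call was lost. Its other probes had ratios of -0.44 and -0.81, both called lower. Os09g0434500, also of group VII, was lower at -0.58 ± 0.09 (SE). The 4 that were higher are named here after their values were seen. They were ERF1 (Os04g0546800), a 5.69-fold rise with ratios of 2.52, 2.50 and 2.50, Os07g0674800 at 1.82, Os01g0313300 at 1.44 and Os07g0617000 at 0.42. The water channel of Os07g0674800 was well above background on 1 array, and processed signals put its ratio at 3.08, the authors' deposited table at 2.97. Os07g0617000 was called on 1 of its 3 probes, and its call was lost with the processed signals (adjusted p = 0.0615 in limma), under median centring, in the authors' deposited table, with channels as separate samples, with the mean over its probes and without replicate 1. Without replicate 3 it was at 0.27 and not called. With these loci added, group VII had 11 tested members, of which 2 were higher, 5 lower and 4 not called. Os07g0674800 and Os01g0313300 were the group VII loci that were higher, so rises were not confined to the other groups. Os03g0341000, another group VII locus, was not called and had ratios of 0.48, 0.07 and 2.60 on replicates 1, 2 and 3, apart on replicate 3. ERF48 (Os08g0408500), named after its values were seen, was also not called, at 0.32 on its brightest probe. Its other probes were called higher, at 0.90 and 0.97, so the probes of ERF48 disagreed.

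Ethylene synthesis and signalling lie upstream of many ERF factors. Of 19 such loci, 17 were tested. Against 29.1% of all tested genes called higher and 20.6% lower, 8 of the 17 were higher, 2 lower and 7 not called. Their median ratio was 0.23. The largest rises were those of ACO5 (Os05g0149400), an ACC oxidase that completes ethylene synthesis, at 4.04 ± 0.10 (SE, adjusted p = 2.74e-06 in limma), and ACS2 (Os04g0578000), an ACC synthase, at 2.65 ± 0.15 (SE, adjusted p = 4.62e-05 in limma). The water channel of ACO5 was well above background on 2 arrays, and processed signals put its ratio at 5.09, the authors' deposited table at 4.97. The falls were those of EIN2 (Os07g0155600), the membrane protein that passes the ethylene signal on, at -0.63 ± 0.08 (SE), and CTR2 (Os02g0527600), a kinase that holds the pathway back, at -0.48 ± 0.09 (SE). Each was below 0 on all 3 arrays. Among the transcription factors that EIN2 acts on, EIL2 (Os07g0685700), named after its value was seen, rose 3.82-fold with ratios of 1.88, 1.95 and 1.97. The 4 tested ethylene receptors were not called on their brightest probes, with means between -0.13 and 0.17. One further probe of ERS1 (Os03g0701700) and one of ETR2 (Os04g0169100) were called higher, at 0.38 and 0.38, so the probes of these receptors disagreed.

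Of 10 genes of responses these factors are known for, 8 were tested, with a median ratio of 1.29. Of these 4 were higher, 0 lower and 4 not called, against 29.1% higher and 20.6% lower over all tested genes. The 4 are all given, the smaller 2 named after their values were seen. NCED3 (Os03g0645900), an enzyme of abscisic acid synthesis, rose 6.89-fold with ratios of 2.59, 2.38 and 3.38. NCED4 (Os07g0154100), of the same step, was well above background on 0 water arrays and was at least 3.10-fold higher. Its ratio was 1.72, against 4.65 with the processed signals. Of the fermentation enzymes, ADH1 (Os11g0210300) rose 3.73-fold, and PDC1 (Os05g0469600) rose 3.05-fold with ratios of 1.15, 1.06 and 2.61. Without replicate 3 the ratio of PDC1 was 1.11, against 1.61. The 3 tested loci of pathogenesis-related proteins were not called. Their arrays went apart, with -0.63, 0.61 and 2.90 for PBZ1 (Os12g0555500), -0.65, -0.01 and 0.39 for PR1a (Os07g0129200) and -0.25, -0.06 and 0.75 for PR5 (Os12g0628600), each highest on replicate 3. That replicate's water sample was also the one with leaf transcripts, whose part in these ratios was not tested.

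**Figure D3:**
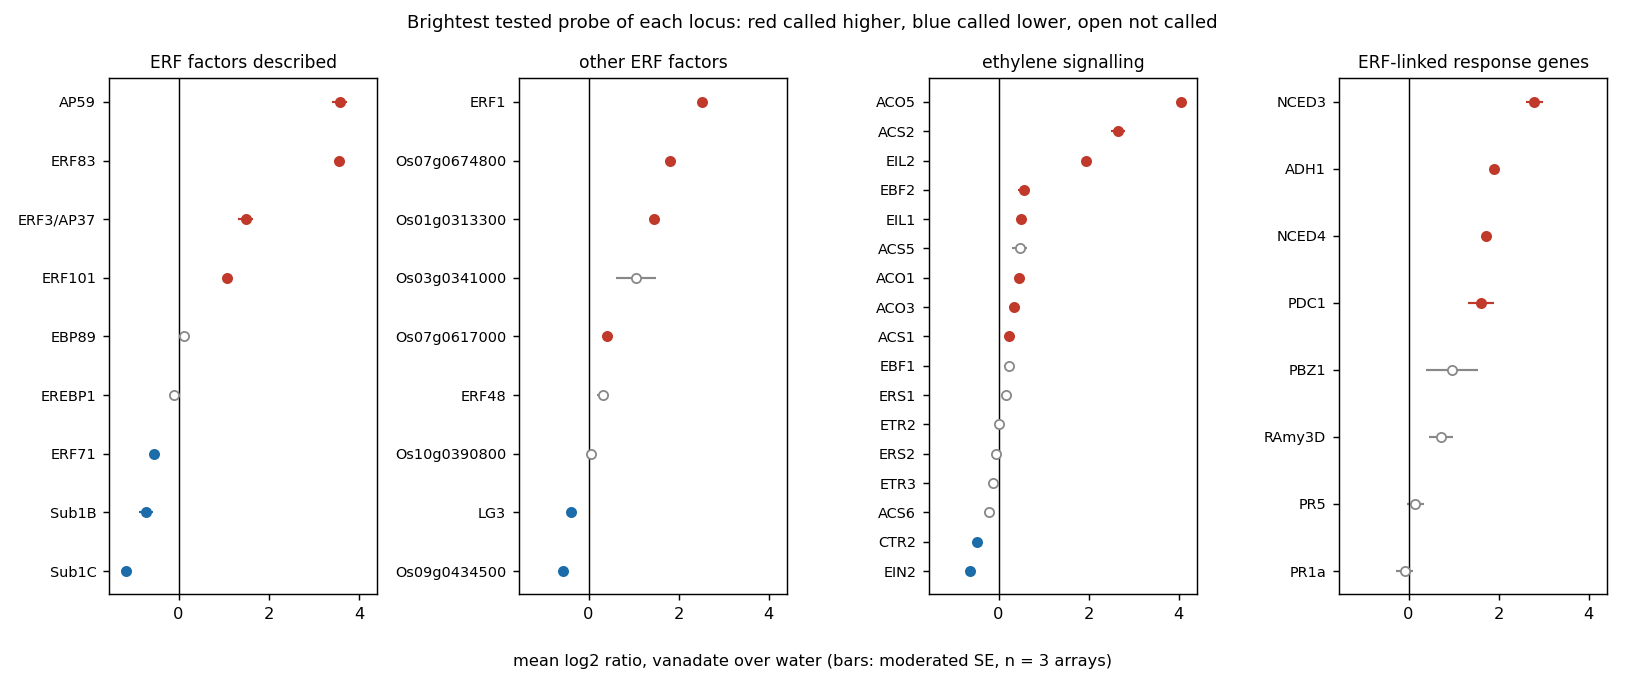
Points are mean log2 ratios of vanadate over water (horizontal axis) of the brightest tested probe of each locus, with bars for the moderated SE over 3 arrays, in 4 panels for the ERF factors described, other ERF factors, ethylene signalling and genes of ERF-linked responses. AP59 and ERF83 lie near 3.6, beyond every other ERF locus shown, and only ACO5 at 4.04 lies further right.

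The members that were called kept their direction under each of the 15 alternatives of processing, or 14 where the strict filter removed the probe. Their ratios ranged from 3.33 to 3.78 for AP59, from 3.43 to 4.29 for ERF83, from 1.25 to 1.71 for ERF3/AP37, from 0.94 to 1.17 for ERF101 and from -0.77 to -0.43 for ERF71. Sub1C reached -1.35 at its lowest. Sub1B had the widest range, from -2.04 to -0.59. The only call lost among these 7 loci was that of Sub1C with channels as separate samples.

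**Figure D4:**
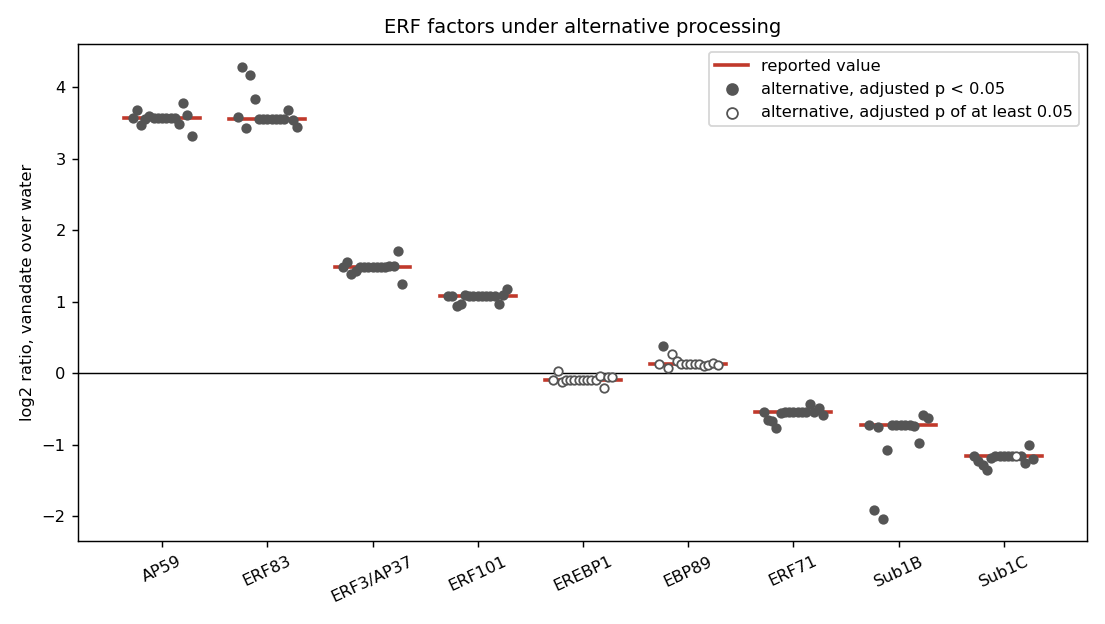
Each point is the log2 ratio of vanadate over water (vertical axis) of 1 locus under 1 alternative of background correction, normalization, filter, model or replicates, filled where the adjusted p was under 0.05, and the red line is the reported value. Sub1B drops to -2.04 and -1.92 in the authors' deposited table and with the processed signals, while the other loci stay within 1 unit of the line.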

How the data were processed

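The members and lists were chosen with earlier results of these data known, and locus identifiers of the lists came from background knowledge. Per the file headers, Agilent Feature Extraction (version 10.7.1.1) wrote the intensity of each spot: median signals and local backgrounds are uncorrected, and processed signals are background-subtracted and dye-normalized. The log2 values in the authors' deposited table equal processed red over green to within 0.001 for at least 99.9% of the 42415 matched probes on each array. It is not centred, with medians of -0.19, -0.21 and -0.05. The flags for signal above background and for outliers are other values deposited with the spots.

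Median signals were corrected with normexp (offset 50) and loess within arrays in limma 3.58.1 under R 4.3.3. Control spots and outlier-flagged spots were left out, and spots of a probe averaged. A probe was tested with values on all 3 arrays and signal well above background in either channel on at least 2, which kept 31159 of 42418. The mean log2 ratio was tested against 0 with lmFit and eBayes, and p-values were adjusted across every tested probe by Benjamini-Hochberg. The fit was tested on simulated data. The brightest tested probe stands for its locus. SE is limma's moderated standard error. Limits for dim probes set the brighter channel against the higher of the dim level and the lowest level above background, after Aquantile scaling, and are open to dye bias.

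Named were all 10 loci and, per list, up to 2 called loci with the largest rise and 2 with the largest fall; exceptions are marked. Gene names were not checked against an annotation, as the reference table of another assembly pairs no such locus identifiers.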

Additional observations from a re-analysis of the deposited data

How the results depend on the processing

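Across the alternatives 4 loci were called higher, or 5 with the processed signals, and 3 lower, or 2 with the strict filter and with channels as separate samples. Of the probes, 3 were lower with the strict filter on dim probes and 2 with channels as separate samples, against 5, 7 with no filter on dim probes and 6 in the authors' deposited table, where the dimmest ERF71 probe was called at -0.43. With channels as separate samples, that is with no replicate block, 1 other ERF locus was higher and 1 lower, and 4 ethylene loci were higher and 1 lower. The ethylene loci called higher numbered 4 under median centring and 5 in the authors' deposited table, and 5 to 7 when 1 replicate was left out. The other ERF loci called lower numbered 1 to 2 when 1 replicate was left out, the 1 without replicate 3. Signs turned only on EREBP1 and EBP89 probes, all near 0. With the processed signals EREBP1's brightest probe was at 0.025 and its probe number 3 at 0.020. Its probe number 4 was at -0.10 under median centring and at -0.093 in the authors' deposited table. The dimmest EBP89 probe was at 0.10 with the background of negative control spots, an alternative chosen after seeing the data, at 0.22 with the processed signals and at 0.11 in the authors' deposited table. With 1 replicate left out the EREBP1 probes after the brightest ranged from -0.16 to 0.0055, from -0.039 to 0.053 and from -0.021 to 0.036, and the EBP89 probes after the brightest from -0.073 to 0.33 and from -0.069 to 0.053. The authors' deposited table moved the median of all genes to -0.11 from 0.02, and there 4999 genes were higher and 6862 lower, against 6443 and 4573. With channels as separate samples these numbers were 3373 and 1444, under median centring 4216 and 3257, and without replicate 2 they were 5024 and 2794. Signal close to background limits Sub1B, EBP89, ERF922 and the dim probes of Sub1C. The causes of these shifts were not tested. The water and vanadate channels of an array come from the same biological replicate, so the ratio is itself the paired analysis.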
